A study of Drosophila melanogaster with 2 samples.

Results

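The aminoacyl-tRNA synthetase genes were taken as the protein-coding genes whose symbol is the three-letter code of an amino acid followed by RS, or by RS-m for a mitochondrial enzyme, together with GluProRS. Of the 13968 protein-coding genes on the chromosome arms, 33 met that rule: 18 without the -m ending, here called cytosolic, and 15 with it. Binding of the transcription factor Usf, carried as a fusion with green fluorescent protein (Usf-GFP) in a stable transgenic fly line, was profiled by chromatin immunoprecipitation and sequencing (ChIP-seq) with an antibody against GFP. The study had 1 group of 2 biological replicates, numbered 3 and 4, of whole embryos aged 0 to 16 hours with both sexes pooled. The tag is at the C terminus of Usf, the promoter that drives the fusion is not given in the sources used here, and whole embryos mix all cell types. No group without the fusion was analysed here.

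Aminoacyl-tRNA synthetases join each amino acid to its transfer RNA (tRNA) and thereby supply the ribosome. Animal cells translate in the cytosol and in mitochondria, and many amino acids have a separate nuclear gene for the mitochondrial enzyme, while other genes serve both compartments from a shared locus. In vertebrates USF proteins bind the E-box CACGTG as dimers.

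The measure was the authors' peak lists on the fly genome build dm6, which is Release 6. The authors' optimal list held 2767 peaks and is named for a threshold on the irreproducible discovery rate (IDR), a measure of how well the ranks of peaks recur between replicates. These were exactly the 2767 strongest peaks of the pooled list by signal. The relaxed list called on the pooled reads held 21315 peaks, background among them. The relaxed lists of replicates 3 and 4 held 28459 and 29246. A peak was counted for a gene if its summit was no more than 1 kb from any annotated transcription start site (TSS) of that gene. Every IDR peak at a synthetase gene was also the strongest pooled peak there, and its signal was the authors' pooled value, whose scaling is not stated. Read depth is unknown.

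The sequences at 6 of the 8 IDR summits that lay at synthetase genes are shown because they are the stretches on which the peaks were centred. Each is the plus strand of the Release 6 sequence, the summit base with 50 bp to each side, with every E-box of the general form CANNTG in capitals. The form CACGTG was in none of them.
LeuRS-m, chr3L:4824979-4825079: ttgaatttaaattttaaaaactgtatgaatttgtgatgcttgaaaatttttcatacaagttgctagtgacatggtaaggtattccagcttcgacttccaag
IleRS, chr3L:22288462-22288562: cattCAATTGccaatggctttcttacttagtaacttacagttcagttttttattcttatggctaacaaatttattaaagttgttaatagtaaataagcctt
ThrRS, chr2L:12103517-12103617: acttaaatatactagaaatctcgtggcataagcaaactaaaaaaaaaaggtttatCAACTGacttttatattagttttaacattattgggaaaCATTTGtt
GluProRS, chr3R:23958486-23958586: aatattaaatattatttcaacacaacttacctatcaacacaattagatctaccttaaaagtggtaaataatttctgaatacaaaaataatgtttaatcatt
AsnRS, chr2L:19131994-19132094: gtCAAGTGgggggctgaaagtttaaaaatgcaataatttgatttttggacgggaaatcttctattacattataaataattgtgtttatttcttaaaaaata
ArgRS-m, chr3R:7886871-7886971: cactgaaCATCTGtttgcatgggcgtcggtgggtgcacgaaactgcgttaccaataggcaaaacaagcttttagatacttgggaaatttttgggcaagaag
Most of these stretches were rich in A and T: GC content was 20.8% at GluProRS, 24.8% at ThrRS, 26.7% at IleRS and AsnRS, and 30.7% at LeuRS-m. ArgRS-m stood apart with 45.5%. Over all 8 summits the median was 26.7%, against 32.7% over the 2767 IDR summits.

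Usf-GFP peaks of the IDR list lay at 8 of the 33 synthetase genes (24.2%, 95% Wilson interval 12.8–41.0). Over all protein-coding genes the share was 15.3%, which lies inside that interval. They were the cytosolic enzymes for isoleucine (IleRS, FBgn0027086), threonine (ThrRS, FBgn0027081), aspartate (AspRS, FBgn0002069), serine (SerRS, FBgn0031497) and asparagine (AsnRS, FBgn0086443), GluProRS (FBgn0005674), which charges both glutamate and proline tRNAs, and the mitochondrial enzymes for leucine (LeuRS-m, FBgn0027085) and arginine (ArgRS-m, FBgn0037526). Among cytosolic genes 6 of 18 had such a peak (33.3%, interval 16.3–56.3), and among mitochondrial genes 2 of 15 (13.3%, interval 3.74–37.9). These intervals overlap widely, cover counting error over genes only, and the difference was not tested. The cytosolic set includes genes of amino acids with no -m gene, which may serve both compartments. Without those genes, 5 cytosolic genes had an IDR peak. With a summit in the pooled relaxed list counted instead, 19 of 33 synthetase genes had a peak (57.6%, interval 40.8–72.8), beside 48.2% of all protein-coding genes. The cytosolic count was 12 of 18 and the mitochondrial count 7 of 15.

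The strongest peak of the family lay upstream of LeuRS-m, at chr3L:4824907-4825151, with a pooled signal of 301.7, which ranked 248 in the pooled list. Replicate 3 gave 155.5 (rank 280) and replicate 4 gave 145.2 (rank 238). The summit was 824 bp from the LeuRS-m TSS, the farthest of the 8, and lay in an intron of Dhc64C, the heavy chain of cytoplasmic dynein, 658 bp from a TSS of that gene. LeuRS-m charges leucine tRNA in mitochondria, and its cytosolic counterpart LeuRS had no summit within 1 kb even in the pooled relaxed list.

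IleRS and ThrRS followed with almost equal signals. The IleRS peak, chr3L:22288402-22288590, had a pooled signal of 220.7, and the replicates gave 107.7 (replicate 3, rank 594) and 106.2 (replicate 4, rank 448). Its summit lay in intergenic sequence 153 bp upstream of the TSS, on the far side of which Hem, a subunit of the actin-regulating WAVE complex, starts in the opposite direction. The ThrRS peak, chr2L:12103466-12103690, had a pooled signal of 219.5, and the replicates gave 111.7 (replicate 3, rank 556) and 112.7 (replicate 4, rank 398). Its summit was intergenic too, 184 bp upstream of ThrRS and 282 bp from a TSS of Patsas. No -m gene for threonine is annotated.

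GluProRS had a pooled signal of 196.2 at chr3R:23958338-23958733, where replicate 3 gave 106.5 (rank 613) and replicate 4 gave 87.6 (rank 656). The replicate summits lay 91 and 96 bp from the pooled summit, close to the limit of 100 bp used for matching, and replicate 4 had another summit 104 bp away with a signal of 61.6. The pooled summit was intergenic, 145 bp upstream of GluProRS and 115 bp from the TSS of AP-1sigma, a subunit of a clathrin adaptor.

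SerRS was the only one of the 8 with its summit downstream of its TSS, by 42 bp, in sequence annotated as 5′ UTR. The peak, chr2L:3037163-3037558, had a pooled signal of 146.5, beside 74.2 in replicate 3, at rank 1121, and 68.0 in replicate 4, at rank 1017. A TSS of CG17260, on the opposite strand, lay 50 bp from that summit.

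AspRS, at chr2R:12879870-12880265, had a pooled signal of 183.6 and the least even replicates. The replicate 4 summit coincided with the pooled summit and had a signal of 105.9 (rank 452). In replicate 3 there were 2 summits to set beside it, 78 bp away with a signal of 60.7 (rank 1543) and 124 bp away with 82.3 (rank 943). The ratio of the signal in replicate 3 to that in replicate 4, taken from the nearest summit, was 0.573, and 2.64% of the 2615 IDR peaks matched in both replicates had a lower ratio. For the other 7 members it ran from 0.991 to 1.22, and the median over those 2615 peaks was 1.17. AspRS has 3 annotated TSSs. The summit lay inside the annotated AspRS gene (chr2R:12877004-12883168), in sequence annotated as intron. It was 216 bp upstream of the nearest of the 3 and 162 bp from a TSS of Nmda1. The promoter window used for motifs below is set at the most upstream AspRS TSS, which is not the one nearest to this summit.

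AsnRS and ArgRS-m stood just inside the IDR list, whose weakest peak had a signal of 71.3. AsnRS, at chr2L:19131846-19132241, had a pooled signal of 73.2, beside 38.7 in replicate 3, at rank 2873, and 36.4 in replicate 4, at rank 2577. ArgRS-m, at chr3R:7886723-7887118, had a pooled signal of 71.9, beside 35.0 in replicate 3, at rank 3278, and 29.1 in replicate 4, at rank 3506. Their summits were intergenic, 90 and 124 bp upstream of the respective TSS. Of the 2131 protein-coding genes with an IDR peak, 98.1% had a higher signal than AsnRS and 99.3% a higher one than ArgRS-m. The corresponding share was 13.0% for LeuRS-m, 23.8% for IleRS, 24.1% for ThrRS, 30.1% for GluProRS, 33.1% for AspRS and 45.3% for SerRS; these 6 lay above the median of 134.2 over the 2131 genes. Over the 8 synthetase genes it was 189.9.

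**Figure D1:**
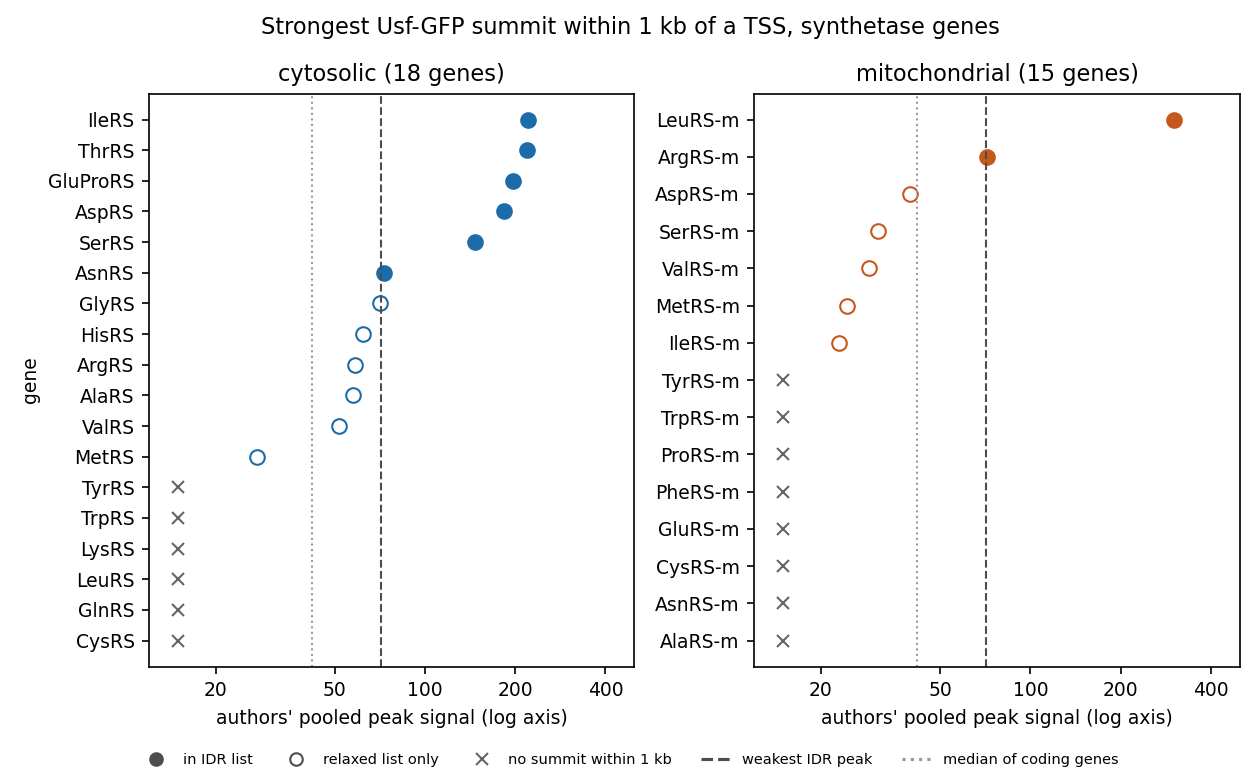
Strongest pooled Usf-GFP summit within 1 kb of a TSS for each of the 33 synthetase genes, with the authors' pooled peak signal on a log axis. Filled points are in the IDR list, open points only in the relaxed list, and crosses, placed at an arbitrary level, mark genes with no summit. The dashed line is the weakest IDR peak (71.3), the dotted line the median over protein-coding genes with a pooled summit (41.9).

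Outside the IDR list, 11 synthetase genes had only a relaxed summit. GlyRS missed the list by the least, with a pooled signal of 70.9 at chr3L:15094758-15095153 (rank 2790), 186 bp upstream of its TSS and within 1 kb of TSSs of Plp, a centrosome protein, and sstn. Its replicates were uneven: replicate 3 had a summit 137 bp away with a signal of 43.9 (rank 2423), while replicate 4 had 16.5 (rank 11947) at 67 bp. HisRS had 62.1 at chrX:18516018-18516413, 788 bp downstream of its TSS, from which Bx, a LIM-only protein gene, is also annotated to start, and the replicates gave 31.6 (replicate 3, rank 3777) and 29.8 (replicate 4, rank 3393). ArgRS had 58.4 at chrX:15844104-15844499, 157 bp upstream of its TSS and within 1 kb of a TSS of CG8578. Its replicates gave 21.9 (replicate 3, rank 7703) and 38.2 (replicate 4, rank 2417). AlaRS followed with a pooled signal of 57.3 and ValRS with 51.8. AspRS-m had 39.8, SerRS-m 31.1, ValRS-m 29.0, MetRS 27.5, MetRS-m 24.4 and IleRS-m 23.0.

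The weak summits in coding exons were all linked to mitochondrial genes, but not all lay inside them. Those of SerRS-m and IleRS-m lay 887 and 577 bp upstream of the TSS, outside the synthetase gene. Those of ValRS-m and MetRS-m lay 954 and 287 bp downstream of the TSS, inside the gene. None of the 4 was matched in both replicates within 100 bp. The summits of GlyRS, ArgRS, ValRS, MetRS and AspRS-m were intergenic, that of AlaRS was in a 3′ UTR of a neighbouring gene and that of HisRS in a 5′ UTR. Of the 11, 5 were matched in both replicates: AlaRS, ArgRS, HisRS, ValRS and AspRS-m. Among members with any pooled summit, the median of the strongest signal was 72.1 for the 12 cytosolic genes and 31.1 for the 7 mitochondrial genes. Over the 6727 protein-coding genes with such a summit it was 41.9.

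The remaining 14 genes had no pooled summit within 1 kb. They were the cytosolic CysRS, GlnRS, LeuRS, LysRS, TrpRS and TyrRS and the mitochondrial AlaRS-m, AsnRS-m, CysRS-m, GluRS-m, PheRS-m, ProRS-m, TrpRS-m and TyrRS-m. The nearest pooled summit was 1256 bp away for AlaRS-m, 1624 bp for TrpRS-m, 1981 bp for CysRS and 2034 bp for PheRS-m. It was 2614 bp away for TyrRS-m, 2742 bp for CysRS-m, 3107 bp for GlnRS, 3279 bp for AsnRS-m and 3324 bp for TrpRS. The distances were 4703 bp for GluRS-m, 6582 bp for LysRS, 6828 bp for TyrRS, 10068 bp for LeuRS and 11014 bp for ProRS-m. GluRS-m and TyrRS lie in tandem on the same strand with 171 bp between them, and their nearest IDR summits were 36242 and 38367 bp away. In the relaxed lists of the replicates, 7 of the 14 had no summit within 1 kb in either. CysRS-m had a summit in both, of 32.9 (replicate 3, rank 3581) and 13.5 (replicate 4, rank 19707). The other 6 had a summit in only 1 replicate, with signals of at most 19.4.

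For 14 amino acids the symbol rule gave both a cytosolic and an -m gene, counting GluProRS for glutamate and for proline. In 6 of them only the cytosolic gene had an IDR peak (asparagine, aspartate, glutamate, isoleucine, proline and serine), in 2 only the mitochondrial gene (arginine and leucine), in 6 neither, and in 0 both. With 2 mitochondrial genes called, at most 2 amino acids could have had both, and nothing is read from the 0. Of the 5 amino acids with no -m gene (glutamine, glycine, histidine, lysine and threonine), only threonine had an IDR peak at its gene. Phenylalanine was in neither group because the genes of its cytosolic enzyme, alpha-PheRS and beta-PheRS, fall outside the symbol rule. There beta-PheRS had an IDR peak, and alpha-PheRS and PheRS-m had none. With alpha-PheRS and beta-PheRS added, 9 synthetase genes had an IDR peak, 7 of them cytosolic. The synthetases fall into a pair of structurally unrelated classes. Of the class I genes 3 of 18 had an IDR peak and of the class II genes 4 of 14, with GluProRS, which holds a domain of each, counted apart. The share over all protein-coding genes, 15.3%, is the background for these counts, and no difference between them was tested. Of the 8 cytosolic enzymes that in vertebrates belong to the multisynthetase complex, a grouping made after the values were seen, 3 had an IDR peak (AspRS, GluProRS and IleRS), and of the other 10 cytosolic genes 3 did. By chromosome arm, 3 of 6 genes on 2L had a peak (15.2% of all coding genes there), 1 of 8 on 2R (13.8%), 2 of 10 on 3L (16.2%), 2 of 6 on 3R (16.2%) and 0 of 3 on X (330 of its 2196 coding genes).

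All 8 IDR summits at synthetase genes also lay within 1 kb of a TSS of another protein-coding gene, on the opposite strand. A divergent neighbour was counted when another coding gene on the opposite strand had a TSS upstream of a synthetase TSS within 1 kb. Such a neighbour was present for 23 of the 33 synthetase genes (69.7%), against 36.2% of all protein-coding genes. An IDR peak was found at 8 of these 23 genes (34.8%), beside a background of 27.3% of the 5052 coding genes with a divergent neighbour. It was found at 0 of the 10 synthetase genes without one, beside a background of 8.43% of the 8916 such coding genes. These 10 were AlaRS, CysRS, AspRS-m, GluRS-m, IleRS-m, MetRS-m, PheRS-m, SerRS-m, TrpRS-m and ValRS-m. At that background 10 genes are too few to read anything from the 0, and no difference between these shares was tested.

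**Figure D2:**
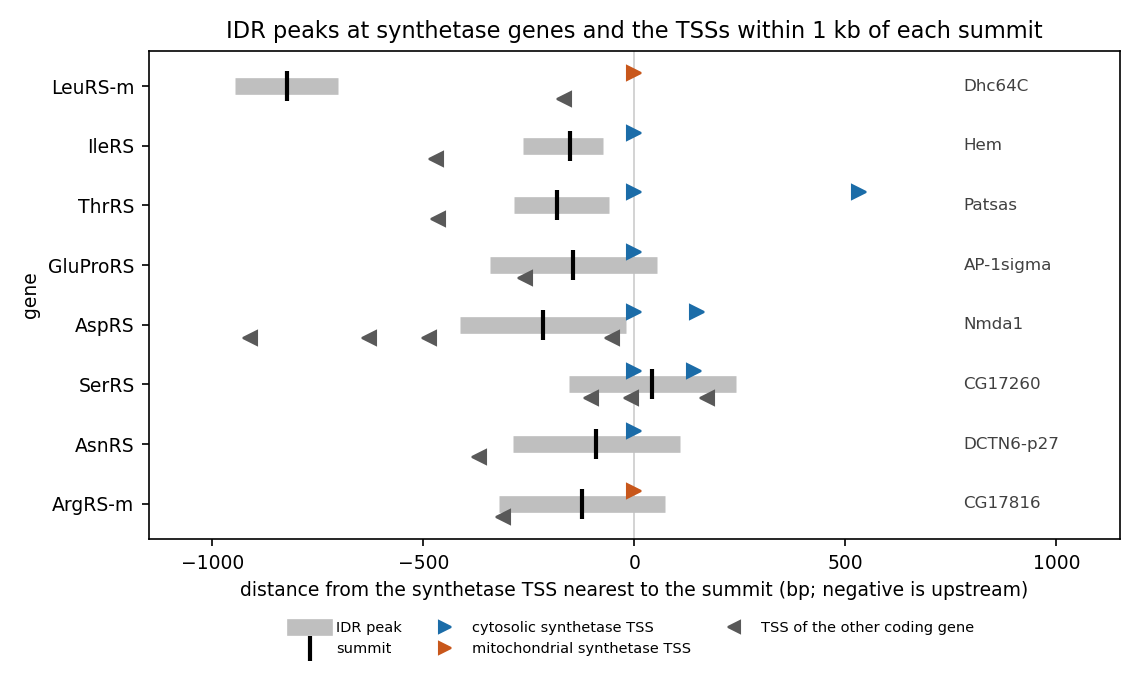
IDR peaks at the 8 synthetase genes that have one, in bp from the synthetase TSS nearest to the summit (negative is upstream, each gene drawn left to right). Grey bars are the authors' peak intervals, black ticks the summits, coloured arrows the synthetase TSSs and grey arrows the TSSs, within 1 kb of the summit, of the other gene, whose name stands at the right. In every case the other gene points the opposite way, and only the LeuRS-m summit lies beyond 216 bp from its synthetase TSS.

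The compartments differed in how many of their genes had such a neighbour. It was present for 16 of 18 cytosolic genes (88.9%) and for 7 of 15 mitochondrial genes (46.7%). Among genes with a divergent neighbour an IDR peak lay at 6 of 16 cytosolic genes (37.5%) and 2 of 7 mitochondrial genes (28.6%). The part of the neighbour in the difference between compartments was not tested. The neighbour and not the synthetase had the TSS nearest to the summit in 3 cases, Dhc64C for LeuRS-m, AP-1sigma for GluProRS and Nmda1 for AspRS. The other genes within reach were Hem at IleRS, Patsas at ThrRS, CG17260 at SerRS, DCTN6-p27, a dynactin subunit, at AsnRS and CG17816 at ArgRS-m. Peaks at such promoters cannot be assigned to either gene from these lists. Over all 1663 IDR summits within 1 kb of a coding TSS, 709 (42.6%) had more than 1 coding gene in reach. That share is counted over summits and not over genes. By gene, a shared summit counts for each gene in reach, so the share is not a background for the synthetase genes. Counted by gene, 1379 of the 2131 coding genes with an IDR peak had a divergent neighbour.

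**Figure D3:**
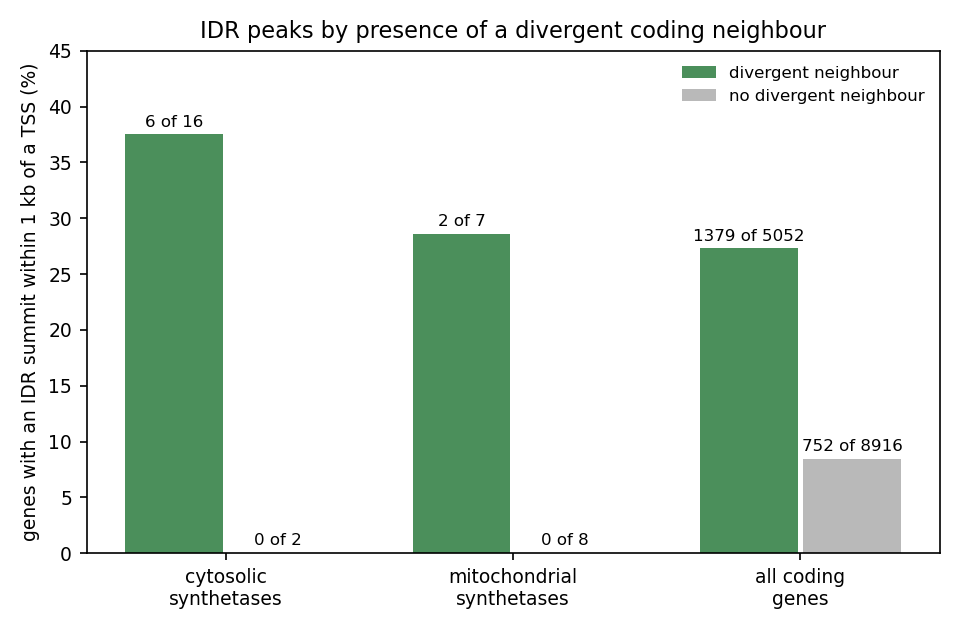
Percentage of genes reached by an IDR summit (no more than 1 kb from a TSS), for genes with a divergent coding neighbour (green) and without (grey), with the counts above the bars. The green bars hold 6 of 16 cytosolic and 2 of 7 mitochondrial synthetase genes, beside 1379 of 5052 coding genes. The grey bars hold 0 of 2 cytosolic and 0 of 8 mitochondrial synthetase genes, beside 752 of 8916 coding genes.

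Apart from AspRS, the IDR peaks at synthetase genes had similar signals in the replicates. All 8 IDR peaks had a summit within 100 bp in both relaxed lists. Of all 2767 IDR peaks 2615 were so matched and 152 were not. Of the 19 members with a pooled summit 13 were matched in both replicates, 10 of 12 cytosolic and 3 of 7 mitochondrial. Over all protein-coding genes 3578 of 6727 were. When the IDR list was replaced by the 2767 strongest peaks of a lone replicate, the list of genes changed only among the weakest: with replicate 4 alone ArgRS was gained and ArgRS-m lost, for 8 genes, and with replicate 3 alone GlyRS was gained and ArgRS-m and AsnRS lost, for 7 genes. ArgRS-m was thus among the strongest peaks of neither replicate alone.

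**Figure D4:**
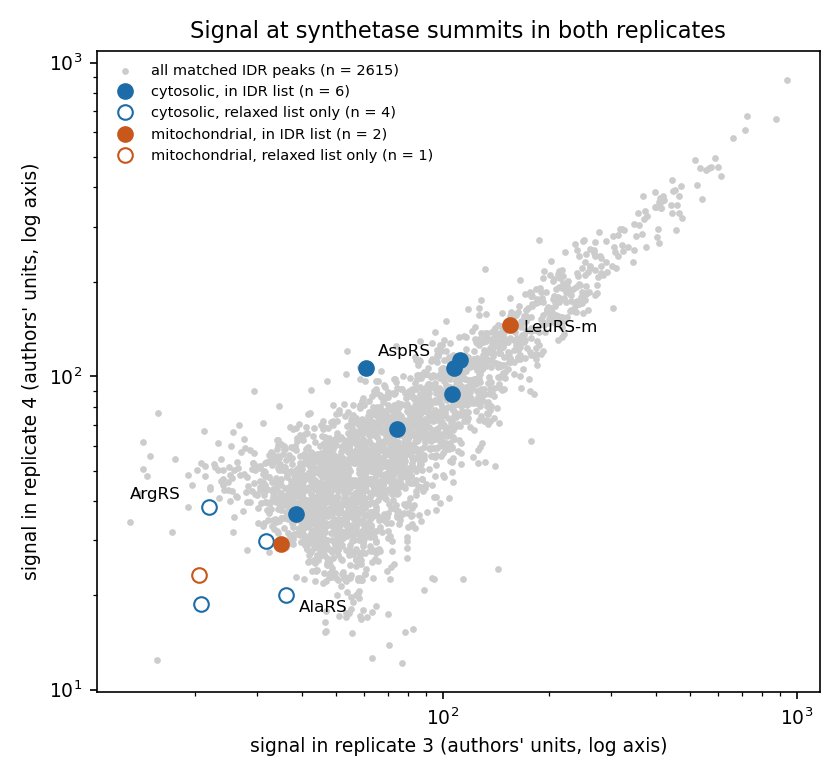
Authors' signal in replicate 3 and in replicate 4 (log axes) at the strongest pooled summit of the 13 synthetase genes matched in both, filled where the peak is in the IDR list. Grey points are the 2615 IDR peaks matched in both replicates. AspRS lies toward the upper left side of the grey points (60.7 and 105.9), of which 2.64% have a lower ratio of replicate 3 to replicate 4. Its replicate 3 value is that of the nearest summit, and another replicate 3 summit 124 bp away had 82.3. The other 7 IDR members lie within the grey points.

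The E-box CACGTG was absent from within 100 bp of the strongest summit of all 19 synthetase genes with a pooled peak, the 8 IDR peaks included. It was present at 68 of all 2767 IDR summits (2.46%) and at 3.07% of pooled summits. E-boxes of the general form CANNTG, searched in the same windows on both strands, were found at 6 of the 8 IDR summits and at 57.7% of all IDR summits; GluProRS and SerRS had none. The promoter element TATCGATA, bound by the fly factor Dref, was found at 1 of the 19 summits (AlaRS), the element GGTCACACT, bound by M1BP, at 2 (AspRS-m and ValRS), and TGATGNAA, the form recognised by ATF4 in mammals, at 1 (HisRS). None of these 3 lay at any of the 8 IDR summits. Over all pooled summits their shares were 1.52%, 0.704% and 2.60%, and over all IDR summits 2.71%, 1.08% and 2.82%. The last of the motifs was searched because mammalian ATF4, whose fly counterpart is crc, induces synthetase genes when amino acids are short.

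In promoters, taken as 250 bp before to 50 bp after the most upstream TSS of each gene, CACGTG was found at 2 of 33 synthetase genes, against 4.23% of all coding promoters. They are shown with 10 bases to each side, the E-box in capitals, on the plus strand.
LeuRS-m, chr3L:4825819-4825844: aattcccatcCACGTGagcgatgtgg
GlnRS, chr3R:25265839-25265864: atcgtgcctgCACGTGtgaaacgaaa
The LeuRS-m motif lay in intergenic sequence 24 bp upstream of the TSS and lay 802 bp from the summit of the LeuRS-m peak. The GlnRS motif lay 133 bp upstream of the GlnRS TSS, in sequence annotated as 5′ UTR of its divergent neighbour, and the nearest pooled summit was 3237 bp away. TATCGATA was found in the promoters of 5 members (AlaRS, ArgRS, IleRS, TrpRS and PheRS-m; 9.36% of all coding promoters) and GGTCACACT in those of 4 (GlnRS, AsnRS-m, AspRS-m and ProRS-m; 6.04%). TGATGNAA was found in that of CysRS alone (4.10%).

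Other genes of tRNA charging and its use were counted for comparison, from 7 lists of 37 symbols, of which 34 matched a gene and 9 had an IDR peak, beside the background of 15.3% of all protein-coding genes. Among synthetases outside the symbol rule, beta-PheRS, a subunit of the cytosolic phenylalanine enzyme, had a peak of 81.9, with 46.1 in replicate 3 and 38.0 in replicate 4, 12 bp from its TSS. The partner subunit alpha-PheRS and the synthetase paralog Slimp had no pooled summit within 1 kb. None of the 3 multisynthetase complex scaffolds AIMP1, AIMP2 and AIMP3 had a pooled summit in reach either. GatA, a subunit of the amidotransferase that makes mitochondrial glutaminyl-tRNA, had a peak of 138.6, shared with P5cr. GatB had none, and GatC had a relaxed summit of 23.6.

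Of the cytosolic elongation factors 4 of 7 had an IDR peak, beside 15.3% of all protein-coding genes. Their signals were 267.5 for eEF1gamma, 190.5 for eEF1alpha1, 77.7 for eEF2 and 76.8 for eEF5, the last shared with ppk29. The other 3 had relaxed summits of 29.7 (eEF1beta), 27.9 (eEF1delta) and 22.3 (eEF1alpha2). Of the mitochondrial elongation factors 0 of 4 had an IDR peak, and mEFTu1 alone had a relaxed summit, with 38.5. The difference between these counts was not tested, and at that background 4 genes are too few to read anything from the 0. The lists were chosen with earlier results of these data known. In the response to uncharged tRNA, crc, the ATF4 counterpart, had a peak of 81.3 shared with Mondo, 617 bp from a crc TSS. The kinase gene Gcn2 had no summit. Of 12 tRNA processing and modification genes 2 had an IDR peak. RNaseZ, which trims the 3′ end of tRNA precursors, had 118.4 at a peak shared with CG12909. La, which binds those ends, had 100.2 at a peak shared with RtGEF. CACGTG lay within 100 bp of the summit at 2 of the 9 genes, eEF2 and RNaseZ, beside 2.46% of all IDR summits. No difference from the synthetase summits was tested.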

How the data were processed

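ChIP-seq of Usf-GFP was deposited as peak lists for 2 samples of 1 group. Per the labels, chromatin was sonicated to 200 to 800 bp. The authors deposited, on dm6, a signal value and a summit for each peak. Per the deposited sample notes, each replicate list was derived from that replicate's alignment, the pooled list from the alignments of both, each with a further file common to all, and the IDR list from these 3 lists; it equals the strongest 2767 pooled peaks. The sources used here name neither the aligner and peak caller nor the IDR threshold. The lists on dm3 were not used, for want of an annotation of that build.

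Peaks were joined to Release 6 and to the Ensembl 115 annotation (BDGP6.54), and all 21315 pooled peaks lay within the arms. Of the start codons of the members, 64 of 64 read ATG. Summits were linked to genes at up to 1000 bp from a TSS and matched between lists within 100 bp, taking the nearest. Signals were used to describe and rank peaks within lists. No test was made: there was no second group, and genes are not replicates. Intervals are 95% Wilson intervals and cover counting error only. The linking and motif search were tested on simulated data. Computations used Python 3.11.15 with SciPy 1.17.1. Every member is named, with full values for those with an IDR peak and the 3 strongest others. The members and lists were chosen with earlier results of these data known. CANNTG and the multisynthetase grouping were added after the values were seen. Of the list symbols, mEFG2, Gcn1 and Mettl1 matched no gene.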

Additional observations from a re-analysis of the deposited data

How the results depend on the processing

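Of 53 recomputed values for 12 results, 38 were unchanged or, for counts, within 1.5 times the reported one. With each summit given only to the nearest coding TSS, 5 synthetase genes kept an IDR peak (AspRS, GluProRS and LeuRS-m lost theirs), 1 of them mitochondrial, and the share was 15.2%, against 10.8% of coding genes. The mitochondrial count also fell from 2 to 1 at 500 bp from a TSS, with only the IDR peaks above the list's median signal (1253 coding genes), and without either replicate (1 in each case). Counts without a replicate ran from 7 to 8 for all members, 6 to 7 for cytosolic ones and 2112 to 2155 for coding genes. The median strongest signal was 39.8 for mitochondrial members at 500 bp and 30.1 with the nearest TSS only, and 70.9 for cytosolic members at 2000 bp. In windows of 50 bp to each side of the summit TATCGATA, GGTCACACT and TGATGNAA each fell to 0 summits; with 150 bp to each side TATCGATA was at 3 and TGATGNAA at 2. The cause of these changes was not tested. Read depth is unknown, and with 8 peaks a change of 1 gene moves a share by several points. No paired analysis was possible because there was 1 group.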
